A study of Mus musculus with 36 samples.

Results

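The 10 Kruppel-like factors (KLFs) described here were Klf3, Klf4, Klf6, Klf9, Klf10, Klf11, Klf12, Klf13, Klf15 and Klf16. They were found by gene name among 54532 genes counted in mouse liver and were chosen with earlier results of these data known. Other KLF genes, such as Klf2, are not among them. All 10 were among the 17994 genes with at least 100 counts in total that were tested. The livers came from 36 adult male mice aged 2 to 3 months on a C57Bl/6NCrl background, kept on chow under a 12 h/12 h light/dark cycle. Of these, 18 were controls heterozygous for the Thrb allele (THRB+/-, labelled WT by the submitters, THRB-WT in this text) and 18 were homozygous knockouts (THRB-/-, THRB-KO). Both groups thus carried at least 1 altered allele, and the knockout affected both isoforms of thyroid hormone receptor beta in all tissues, not only in the liver. Livers were taken every 4 h from ZT2 to ZT22 (ZT counts the hours since the lights came on), from 3 mice of each genotype at each time.

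KLFs are transcription factors with zinc fingers at the C-terminus that bind GC-rich and CACCC-type DNA, and they differ mainly in the N-terminal part through which they recruit coactivators or corepressors. Klf3 and Klf12 bind the corepressor CtBP, Klf9, Klf10, Klf11, Klf13 and Klf16 bind Sin3-type corepressors, and Klf4 and Klf6 mostly act as activators. In the liver, Klf15 is known for its role in amino acid breakdown and gluconeogenesis, Klf10 as a clock-controlled regulator of glucose metabolism, and Klf9 as a gene induced by glucocorticoids and by thyroid hormone.

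The libraries held between 29063273 and 42530551 counts (median 33798472.5), and mitochondrial genes took 5.66 to 7.30% of them. No pair of libraries of the same group was so alike as to be counted once. The 5 hepatocyte markers summed to 63221 to 87698 CPM (counts scaled to library size, here by the TMM method of edgeR) in THRB-WT and to 70401 to 92741 CPM in THRB-KO livers. Marker sums of endothelial (92.8 to 169 against 107 to 182 CPM), Kupffer (150.4 to 474 against 159 to 306), stellate (97.0 to 227 against 142 to 259), cholangiocyte (34.2 to 63.6 against 27.2 to 51.4) and lymphocyte genes (5.62 to 15.5 against 5.76 to 11.3) overlapped between the genotypes, and no marker was called for genotype. Counts per gene do not separate Thrb transcripts of the altered allele, so the Thrb count was not taken as a check of the genotype labels. No other gene was used for such a check.

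To show what lies in front of the genes whose transcripts varied over the day in both genotypes (below), the bases before the start of 4 of them are printed from RefSeq (GRCm38.p6). An entry was found for 8 of the 10 members. Klf10 and Klf16 had none. Capitals mark the E-box CACGTG, the sequence bound by CLOCK and BMAL1. The stretches run 5′ to 3′ on the strand of the gene, at chr19:23140976-23141225 (plus strand), chr12:24651121-24651273 (plus), chr7:63938916-63939165 (minus) and chr6:90462326-90462575 (plus). They hold 250 bases, except for Klf11, where 153 bases lie outside the gene as counted.
Klf9: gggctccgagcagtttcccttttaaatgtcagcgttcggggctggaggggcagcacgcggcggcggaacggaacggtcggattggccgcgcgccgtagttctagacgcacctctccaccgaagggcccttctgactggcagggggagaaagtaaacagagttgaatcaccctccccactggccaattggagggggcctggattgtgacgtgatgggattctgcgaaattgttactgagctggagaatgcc
Klf11: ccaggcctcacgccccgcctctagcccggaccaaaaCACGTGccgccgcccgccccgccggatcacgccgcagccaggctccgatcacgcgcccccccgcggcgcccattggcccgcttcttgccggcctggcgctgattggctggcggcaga
Klf13: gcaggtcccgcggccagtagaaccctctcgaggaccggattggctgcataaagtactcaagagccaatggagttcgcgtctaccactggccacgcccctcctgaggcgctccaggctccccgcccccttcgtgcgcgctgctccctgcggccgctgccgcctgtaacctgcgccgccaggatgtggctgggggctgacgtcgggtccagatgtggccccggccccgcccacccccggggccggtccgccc
Klf15: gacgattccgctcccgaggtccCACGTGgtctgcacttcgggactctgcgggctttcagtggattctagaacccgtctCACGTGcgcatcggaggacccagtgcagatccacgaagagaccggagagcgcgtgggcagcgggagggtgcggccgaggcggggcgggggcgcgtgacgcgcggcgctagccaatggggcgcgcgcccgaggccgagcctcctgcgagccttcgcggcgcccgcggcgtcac

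In windows of 250 bases before the RefSeq start, searched on both strands, CACGTG stood in 4 of the 8 members with an entry, namely at 2 places in Klf15 and at 1 each in Klf4, Klf6 and Klf11. The same letters were found in 6.02% of 32851 promoter windows of that length. In Klf15 the E-boxes began 228 and 172 bases before the start, and in Klf11 214 bases before it. The D-box (TTATGTAA or TTACGTAA, 0.931% of all windows) and the nuclear receptor half-site AGGTCA (14% of all windows) were found in 0 of the 8 windows. CCAAT stood in 5 (33.8% of all windows) and the GC box GGGCGG in 6 (32.7% of all windows). The window of Klf12, at chr14:100149797-100150046, is among the 8 but lies inside the gene as counted (99870632 to 100284679). It held none of the letters searched. These matches describe the letters in this window only.

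Per length of gene model (RPKM), Klf15 had the highest level of the 10 members at 55.4 ± 13.1 RPKM (SD, n = 36), followed by Klf9 at 16.7 ± 6.08 and Klf13 at 6.84 ± 3.42 RPKM. Klf10 (4.43 ± 2.69), Klf3 (4.18 ± 0.590), Klf16 (2.75 ± 1.02), Klf11 (1.85 ± 0.695), Klf6 (1.65 ± 0.359) and Klf12 (1.06 ± 0.198 RPKM) came next, and Klf4 was lowest at 0.329 ± 0.115 RPKM. Klf15 stood above Klf9 in 36 of 36 livers, and Klf9 above Klf13 in 36. The neighbours Klf10 and Klf3 did not separate, since Klf10 was the higher in 15 of 36 livers, and neither did Klf11 and Klf6, with Klf11 higher in 20.

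To ask which members varied over the day, the 6 sampling times were compared within each genotype. Klf9, Klf10, Klf11, Klf13, Klf15 and Klf16 varied with sampling time in both genotypes, 6 of 10 members in each, by the quasi-likelihood test of edgeR (p adjusted by Benjamini-Hochberg over all genes tested). Among all genes, 26.4% were called in controls and 24.9% in knockouts. The members were chosen with earlier results of these data known, so their counts beside such shares, here and below, are a description only. In a model with a 24-h sine and cosine, these 6 members were called in both genotypes, Klf6 in THRB-WT only, and Klf3 and Klf12 in THRB-KO only, which gives 7 and 8 members beside 35.1% and 31.5% of all genes. These calls made in a single genotype do not show a difference between the genotypes, and the test of that difference, which called 0 of all 17994 genes, leaves it unshown.

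**Figure D1:**
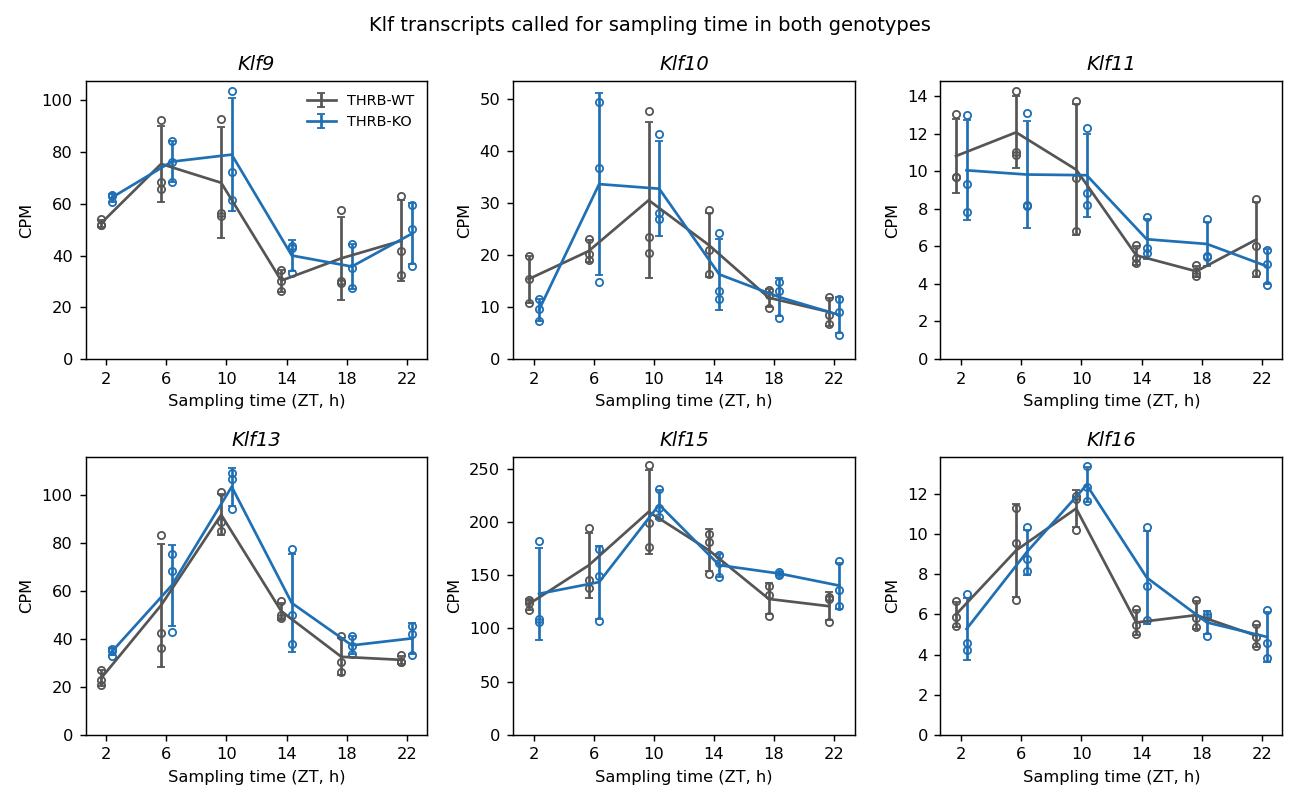
CPM against sampling time (ZT, h) for the 6 members called in both genotypes; open circles are single mice, lines join the means and bars are the SD of 3 mice, grey for THRB-WT and blue for THRB-KO. Klf13 is highest at ZT10 in both genotypes, with all 3 mice of each genotype above the mice of that genotype at every other time.

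Klf13 (ENSMUSG00000052040, chromosome 7, 63886351 to 63938915, minus strand of GRCm38), a repressor of the Sin3-binding group, changed most over the day in THRB-WT livers by fitted amplitude. In the 3 THRB-WT livers of each time, Klf13 stood at 23.0, 20.6 and 27.1 CPM at ZT2, 42.5, 36.3 and 83.6 at ZT6, 89.0, 102 and 85.1 at ZT10, 50.1, 49.0 and 55.8 at ZT14, 30.4, 41.1 and 26.2 at ZT18 and 33.2, 30.4 and 30.4 at ZT22. In THRB-KO livers it stood at 35.7, 35.2 and 33.0 CPM at ZT2, 68.5, 43.1 and 75.5 at ZT6, 109, 107 and 94.5 at ZT10, 37.8, 77.5 and 49.9 at ZT14, 33.7, 37.1 and 41.3 at ZT18 and 42.1, 45.5 and 33.2 at ZT22. Within each genotype, the livers at ZT10 lay above those at all other times without overlap. From ZT2 to ZT10 the mean rose by a factor of 3.90 in controls and 2.99 in knockouts (edgeR adjusted p = 1.98e-06 and 2.34e-05 for sampling time). The 24-h fit placed the peak at ZT10.6 ± 0.606 (SE) and ZT9.84 ± 0.742, with amplitudes of 0.83 and 0.68 on the log2 CPM scale.

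Klf16 (ENSMUSG00000035397, chromosome 10, 80567124 to 80577321, minus strand of GRCm38), also of the Sin3-binding group, had its highest mean at ZT10 too, on a lower level. The 3 THRB-WT livers of each time had 6.67, 5.42 and 5.90 CPM at ZT2, 9.59, 6.70 and 11.3 at ZT6, 10.2, 11.7 and 11.9 at ZT10, 6.29, 5.48 and 5.03 at ZT14, 6.73, 5.80 and 5.37 at ZT18 and 4.42, 5.53 and 4.88 at ZT22. The THRB-KO livers had 7.04, 4.23 and 4.56 CPM at ZT2, 10.3, 8.17 and 8.78 at ZT6, 11.6, 12.4 and 13.4 at ZT10, 7.44, 5.74 and 10.3 at ZT14, 6.02, 4.94 and 5.85 at ZT18 and 4.56, 6.24 and 3.85 at ZT22. In THRB-KO livers the mice at ZT10 did not overlap with any other time, whereas in THRB-WT livers a mouse at ZT6 lay among those at ZT10. The mean at ZT10 exceeded that at ZT22 by a factor of 2.28 for controls and 2.55 for knockouts (edgeR adjusted p = 9.91e-05 and 1.92e-05 for sampling time). The fitted peaks were at ZT8.49 ± 0.721 and ZT9.78 ± 0.560.

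Klf9 (ENSMUSG00000033863, chromosome 19, 23141226 to 23166911, plus strand of GRCm38), the member induced by glucocorticoids and thyroid hormone in other settings, was high in the hours of light and low early in the dark. Single THRB-WT livers had 54.1, 51.6 and 51.7 CPM at ZT2, 65.7, 68.3 and 92.3 at ZT6, 55.3, 92.8 and 56.3 at ZT10, 34.6, 30.2 and 26.1 at ZT14, 30.1, 57.5 and 29.3 at ZT18 and 32.4, 62.9 and 41.9 at ZT22. Single THRB-KO livers had 63.1, 60.5 and 63.5 CPM at ZT2, 68.4, 76.0 and 84.4 at ZT6, 61.3, 103 and 72.3 at ZT10, 33.3, 43.7 and 43.1 at ZT14, 27.5, 44.6 and 35.3 at ZT18 and 50.1, 59.4 and 35.9 at ZT22. All 3 mice at ZT14 lay below all mice at ZT2, ZT6 and ZT10 in either genotype, while 1 THRB-WT mouse at ZT18 and 1 at ZT22 reached the levels of the light phase. The edgeR adjusted p for sampling time was 0.00128 for controls and 0.00196 for knockouts. Both fell short of the threshold without the mice of letter c, at 0.139 and 0.0913.

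Klf10 (ENSMUSG00000037465, chromosome 15, 38291463 to 38300706, minus strand of GRCm38) and Klf11 (ENSMUSG00000020653, chromosome 12, 24651274 to 24662789, plus strand of GRCm38) are both TGF-beta-inducible early genes. Klf10 was measured in THRB-WT livers at 15.5, 19.9 and 10.8 CPM at ZT2, 23.1, 19.0 and 20.1 at ZT6, 47.7, 23.5 and 20.4 at ZT10, 16.3, 20.9 and 28.6 at ZT14, 13.2, 12.3 and 9.88 at ZT18 and 8.43, 12.0 and 6.81 at ZT22. In THRB-KO livers Klf10 was measured at 9.59, 11.5 and 7.33 CPM at ZT2, 36.8, 14.8 and 49.3 at ZT6, 26.8, 28.2 and 43.2 at ZT10, 11.5, 24.2 and 13.1 at ZT14, 14.8, 7.85 and 13.0 at ZT18 and 4.69, 9.14 and 11.6 at ZT22. The mice at ZT22 were the lowest on average in both genotypes, and the THRB-KO mice spread widest at ZT6, where a single mouse stood far below the other two. Sampling time was called with an edgeR adjusted p of 0.00627 in THRB-WT, which rose to 0.163 without the mice of letter a and to 0.0694 without those of letter c, and of 0.000120 in THRB-KO livers.

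Klf11 was high from ZT2 to ZT10. By mouse, THRB-WT livers had 9.67, 13.0 and 9.68 CPM at ZT2, 11.03, 10.9 and 14.3 at ZT6, 13.7, 9.66 and 6.83 at ZT10, 5.36, 5.10 and 6.09 at ZT14, 4.42, 4.58 and 5.01 at ZT18 and 8.50, 6.01 and 4.58 at ZT22. By mouse, THRB-KO livers had 7.84, 13.0 and 9.29 CPM at ZT2, 8.13, 8.22 and 13.1 at ZT6, 8.83, 8.21 and 12.3 at ZT10, 5.63, 7.58 and 5.91 at ZT14, 5.44, 5.47 and 7.47 at ZT18 and 5.05, 3.95 and 5.81 at ZT22. In THRB-WT livers the mice at ZT14 and ZT18 all lay below all mice at ZT2, ZT6 and ZT10. The edgeR adjusted p for sampling time was 0.000136 for controls and 0.00375 for knockouts, and the latter rose to 0.0955 without the mice of letter b.

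Klf15 (ENSMUSG00000030087, chromosome 6, 90462576 to 90475238, plus strand of GRCm38) had the highest level per length and the smallest amplitude of the 6. The 3 THRB-WT mice of each time stood at 124, 117 and 127 CPM at ZT2, 145, 138 and 194 at ZT6, 253, 199 and 177 at ZT10, 181, 151 and 188 at ZT14, 139.7, 111 and 132 at ZT18 and 129, 106 and 127 at ZT22. The THRB-KO mice stood at 106, 182 and 109 CPM at ZT2, 149, 107 and 175 at ZT6, 213, 231 and 204 at ZT10, 169, 161 and 148 at ZT14, 153, 151 and 150.5 at ZT18 and 163, 121 and 136 at ZT22. The THRB-KO mice at ZT10 lay above those at all other times, and in THRB-WT livers 2 of the 3 mice at ZT10, at 253 and 199 CPM, lay above all mice of other times. The edgeR adjusted p for sampling time was 0.00212 for controls and 0.0220 for knockouts. Without the mice of letter a these became 0.115 and 0.196, and without those of letter c the THRB-KO value became 0.133.

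The 6 members peaked in an order of time, which is given as a description with 95% intervals that are not adjusted for the 15 pairs compared in each genotype. In THRB-WT livers, Klf11 (ZT5.53) and Klf9 (ZT5.59) came first, then Klf16 (ZT8.49), Klf10 (ZT9.58), Klf15 (ZT10.5) and Klf13 (ZT10.6). The order in THRB-KO livers was Klf9 (ZT6.09), Klf11 (ZT6.76), Klf10 (ZT9.30), Klf16 (ZT9.78), Klf13 (ZT9.84) and Klf15 (ZT11.7). Klf13 peaked 5.05 h later than Klf9 (interval 2.89 to 7.22 h) and 5.11 h later than Klf11 (3.44 to 6.77 h). In THRB-KO livers the first of these lags was 3.75 h (2.08 to 5.42 h) and the second 3.08 h (0.641 to 5.51 h). The interval left out 0 for 10 of 15 pairs in THRB-WT and for 8 of 15 in THRB-KO livers, and every lag of Klf10, Klf13, Klf15 or Klf16 behind Klf9 or Klf11 was among them in both. The peak of Klf15 minus that of Klf13 was -0.12 h in THRB-WT livers (interval -1.42 to 1.18 h) and 1.91 h in THRB-KO livers (-0.53 to 4.35 h).

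**Figure D2:**
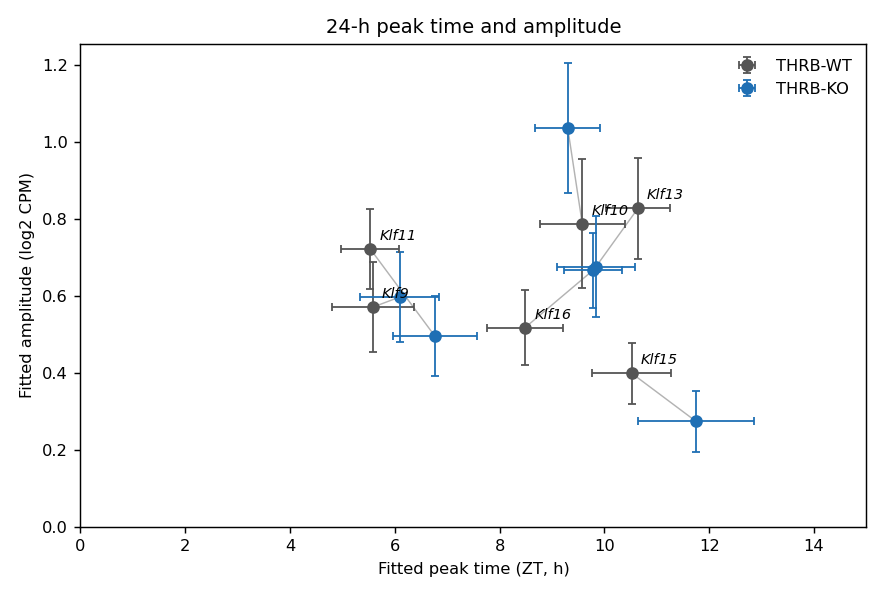
Fitted amplitude (log2 CPM) against fitted peak time (ZT, h) for the same 6 members, grey for THRB-WT and blue for THRB-KO, with SE bars and a line joining the genotypes. Klf9 and Klf11 lie at ZT5.53 to ZT6.76 and the other members at ZT8.49 to ZT11.7.

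Against the rhythmic genes as a whole, amplitudes of these members lay above the median, which was 0.30 on the log2 CPM scale in either genotype, except that of Klf15 in THRB-KO livers. Klf10 had an amplitude of 0.79 for controls and 1.04 for knockouts, Klf11 of 0.72 and 0.50, Klf9 of 0.57 and 0.60, and Klf16 of 0.52 and 0.67. Klf15 had 0.40 for controls and 0.27 for knockouts.

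The remaining 4 members were not called for sampling time in either genotype. The CtBP-binding Klf3 ranged from 36.5 to 57.9 CPM in THRB-WT and from 35.1 to 55.6 CPM in THRB-KO livers, with the highest mean at ZT14 in both. Klf12, of the same group, ranged from 4.30 to 8.92 and from 4.98 to 10.4 CPM. The 24-h calls of Klf3 (edgeR adjusted p = 0.0430, peak at ZT15.9) and Klf12 (0.0311, ZT2.20) in THRB-KO livers were both lost whichever letter of mice was left out.

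The activator Klf6, known as an early response gene of activated stellate cells, lay between 4.35 and 11.5 CPM in THRB-WT and between 5.29 and 10.1 CPM in THRB-KO livers. Its 24-h call in THRB-WT livers (edgeR adjusted p = 0.0397, peak at ZT5.42) was also lost without the mice of any letter. Klf4, best known from the reprogramming of somatic cells, was near the lower limit of what these counts resolve, with 12 to 79 counts per library. It was called in no test.

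**Figure D3:**
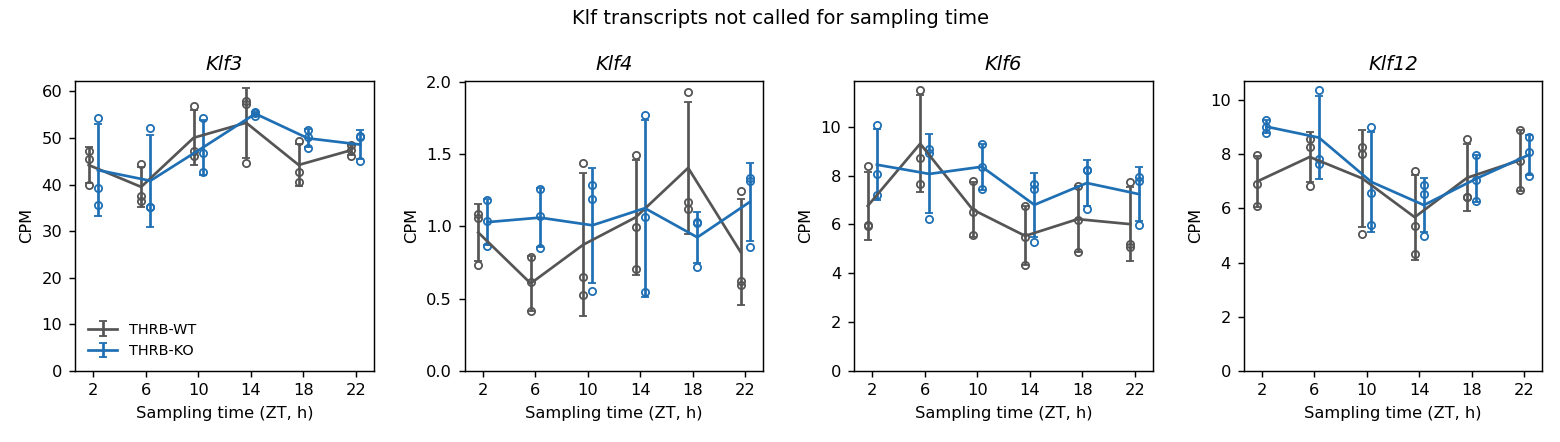
CPM against sampling time (ZT, h) for Klf3, Klf4, Klf6 and Klf12, which were not called for sampling time in either genotype; open circles are single mice, lines join the means and bars are the SD of 3 mice, grey for THRB-WT and blue for THRB-KO. Klf4 stays between 0.411 and 1.93 CPM.

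To ask whether loss of THRB changed the level of a member, genotypes were compared with sampling time in the model. None of the 10 members was called, beside 0.95% of all genes (171 of 17994). With edgeR 2 of 10 members had an unadjusted p under 0.05, beside 12.1% of all genes (2169), and DESeq2 called 0 members as well. The fold change was above 0 for 8 members and below 0 for 2, with a median log2 fold change (THRB-KO over THRB-WT) of 0.08 against 0.00 over all genes tested. That fewer cells of a type and less RNA per cell cannot be told apart in whole liver holds for all of these levels.

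Klf13 had the smallest p, with a log2 fold change of 0.26 (SE 0.093, unadjusted p = 0.00789 and adjusted p = 0.205 from edgeR), and its mean was higher in THRB-KO livers at 6 of 6 times. Klf6 followed with 0.22 (SE 0.088, unadjusted p = 0.0168, edgeR adjusted p = 0.279), higher at 5 of 6 times. Neither passed the threshold. The stellate marker sums given above, with which Klf6 went within groups, overlapped between the genotypes, and their part in the value of Klf6 was not tested. For Klf9, a gene induced by thyroid hormone, the log2 fold change was 0.14, with a 95% interval from -0.06 to 0.34. The paper names raised serum levels of the thyroid hormone T3 as a known trait of these knockouts. Its part in the value of Klf9 was not tested.

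**Figure D4:**
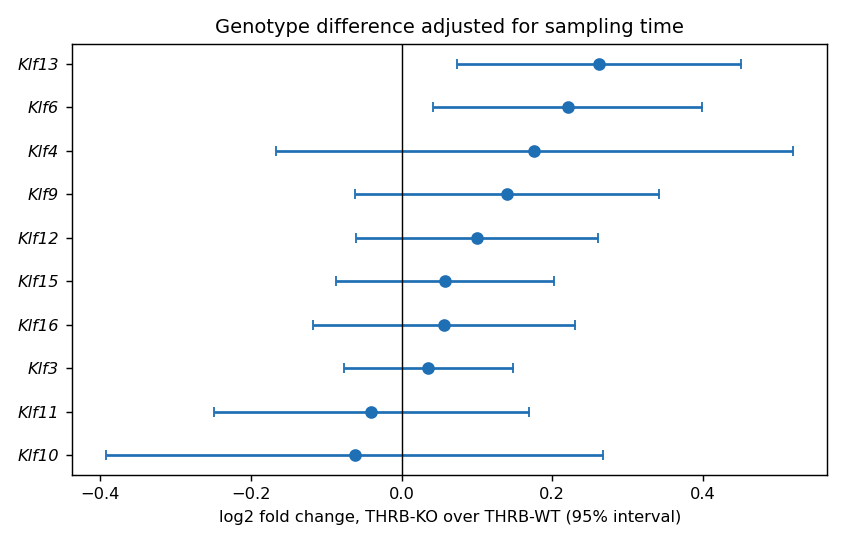
Log2 fold change of the 10 members (THRB-KO over THRB-WT, adjusted for sampling time) with the 95% interval from edgeR; the vertical line marks 0. The intervals of Klf13 (0.07 to 0.45) and Klf6 (0.04 to 0.40) leave out 0 before adjustment for the number of genes.

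For the other members, the interval included 0. Klf15 was estimated at 0.06 (-0.09 to 0.20) and Klf3 at 0.04 (-0.08 to 0.15), the narrowest intervals. Klf10 (-0.06, interval -0.39 to 0.27) and Klf4 (0.18, interval -0.17 to 0.52) had the widest ones, and Klf11 (-0.04), Klf12 (0.10) and Klf16 (0.06) lay between.

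At single sampling times, 0 of 60 differences between genotypes were called by edgeR, and 2 had an unadjusted p under 0.05, a threshold passed by 4.12 to 5.43% of all genes at each time. Of all genes, 0.0278% were called at ZT2, 0.0111% at ZT6, 0.0167% at ZT10, 0.0167% at ZT14, 0.0222% at ZT18 and 0.0222% at ZT22, and DESeq2 called 0 members at any time. The pair with the smallest p, named after their values were seen, were Klf13 at ZT2 and Klf16 at ZT14. For Klf13 at ZT2, 23.0, 20.6 and 27.1 CPM in THRB-WT stood against 35.7, 35.2 and 33.0 CPM in THRB-KO livers, without overlap (log2 fold change 0.55, edgeR adjusted p = 0.864). For Klf16 at ZT14, 6.29, 5.48 and 5.03 CPM stood against 7.44, 5.74 and 10.3 CPM, with overlap (0.49, edgeR adjusted p = 0.928), and the log2 fold change was 0.16 without the mice of letter c.

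Nor did the daily pattern of any member differ between genotypes by the tests run. The genotype effect was not called as varying with time for any member (0% of all genes called; 0 members with an unadjusted edgeR p under 0.05, the smallest being 0.183), and neither was the 24-h rhythm (0% of all genes; smallest edgeR p 0.155). DESeq2 also called 0 members in both. In the cosinor fits, the mesor, which is the mean of the fitted curve, differed for 0 members beside 0.695% of all genes. The amplitude differed for 0 members beside 0% of all genes, and the peak time for 0 of the 6 members beside 0% of the 4411 genes rhythmic in both. The estimated shift in peak (THRB-KO minus THRB-WT) was 1.30 h ± 0.913 (SE) for Klf16, 1.23 ± 1.34 for Klf15, 1.23 ± 0.977 for Klf11, 0.506 ± 1.08 for Klf9, -0.28 ± 1.02 for Klf10 and -0.80 ± 0.958 for Klf13. The place of Klf16 in this order did not hold: without the mice of letter c its shift was 0.034 h.

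The rest of the KLF and SP family, which shares the zinc fingers, held 16 genes in the file, of which 9 had enough counts. None of the 9 was called for genotype, beside 0.95% of all genes. Sampling time called 1 in THRB-WT livers (Sp1, edgeR adjusted p = 0.0114), beside 26.4% of all genes. It called 1 in THRB-KO livers (Klf1, edgeR adjusted p = 0.0291), beside 24.9% of all genes, so 0 in both genotypes. Of the 9 corepressors and coactivators that KLF proteins bind, 3 were called for sampling time in controls and 2 in knockouts, near these shares of all genes. For genotype 0 of the 9 were called. The coactivator Kat2b, which acetylates histones, was among the cofactors called for sampling time in both genotypes, with a fitted peak at ZT7.45 in THRB-WT and ZT7.41 in THRB-KO livers. All 10 clock reference genes were called for sampling time in both genotypes.

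The tested genes whose log2 CPM followed each rhythmic member most closely over the 36 livers are given as a description, since they share the sampling times. Klf13 was closest to Rere (Pearson's r = 0.910) and Foxo1 (0.909), a transcription factor restrained by insulin. Klf15 was closest to Kcnk5 (0.870) and Foxo3 (0.859), Klf16 to Rnf19b (0.903), Klf9 to Kremen1 (0.886), Klf10 to 2900089D17Rik (0.838) and Klf11 to Chic2 (0.814). Among the members themselves, r was 0.777 for Klf13 and Klf15, 0.750 for Klf13 and Klf16, and 0.682 for Klf10 and Klf16. As deviations from the means of the 12 groups, these became 0.363, 0.217 and -0.039.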

How the data were processed

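Per the labels and the study's methods, poly-A selected, non-directional liver libraries of 36 mice were sequenced as read pairs, mapped to GRCm38 with HISAT2 and counted per gene with featureCounts. Versions, annotation release and the treatment of reads with several matches are not given in the sources used here, and without strand, overlapping antisense genes cannot be told apart. The authors deposited whole-number counts without normalization for 54532 genes.

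Genes with at least 100 counts in total were normalized by TMM and tested with edgeR 4.0.16 (glmQLFit and glmQLFTest, R 4.3.3, limma 3.58.1), with Benjamini-Hochberg adjustment over all 17994 genes and a threshold of 0.05. Rhythms used a fixed period of 24 h. Cosinor curves were fitted to log2 CPM values (prior count 2) and compared by Wald tests with 30 residual degrees of freedom. DESeq2 1.42.0, RLE size factors, other filters, a replicate block, pooled times, a prior count of 0.5, vst values and fits without all mice of a given letter were alternatives. RPKM used the deposited gene lengths. Library sizes of 29063273 to 42530551 counts limit the precision for Klf4 most.

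The members, gene lists and tests were chosen with earlier results of these data known. All 10 members are described, and for each rhythmic one the genes most alike. The links given among the other observations, and Klf13 at ZT2 and Klf16 at ZT14, were chosen after values were seen. Scripts were tested on simulated data.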

Additional observations from a re-analysis of the deposited data

How the results depend on the processing

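Of 10 members, 0 were called for genotype, at single times, for the interaction or for a rhythm difference in the main analysis or in any alternative, and Klf13 and Klf16 were called for sampling time in both genotypes in the 7 alternatives run for that test, which did not include the replicate block or pooled times. The 24-h rhythm in THRB-KO livers was called for 5 to 6 members when a letter was left out, against 8. Over all genes it was called for 3486 of 17103 without letter a, 4091 of 17031 without b and 3130 of 17034 without c. The main analysis called 5675 of 17994. Of 22 member calls lost, 20 came from leaving out a letter, which also removes mice, and the others were the 24-h calls of Klf6 (adjusted p = 0.0584) and Klf3 (0.0533, edgeR) without a filter on low counts. The 24-h call of Klf9 in THRB-WT livers was lost without letter c (edgeR adjusted p = 0.116) and that of Klf15 in THRB-KO livers without letter a (0.110) or c (0.184). DESeq2 added Klf6 for sampling time in THRB-WT livers (adjusted p = 0.0317).

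Fits without letter a, b or c changed the sign of 41 results on genotype, none of which was called in any setting. For the log2 fold change adjusted for sampling time the values ran as follows: Klf3 -0.020 to 0.11, Klf4 -0.0066 to 0.33, Klf10 -0.26 to 0.073, Klf11 -0.19 to 0.11, Klf15 -0.029 to 0.10. At ZT2 they were Klf3 -0.22 to 0.14, Klf4 -0.17 to 0.29, Klf15 -0.22 to 0.26. At ZT6 they were Klf3 -0.080 to 0.11, Klf6 -0.40 to 0.13, Klf9 -0.047 to 0.11, Klf13 -0.013 to 0.50, Klf16 -0.13 to 0.18. At ZT10 they were Klf3 -0.20 to 0.13, Klf4 -0.27 to 1.07, Klf10 -0.37 to 0.71, Klf11 -0.46 to 0.33, Klf12 -0.13 to 0.12, Klf15 -0.038 to 0.22. At ZT14 they were Klf3 -0.055 to 0.11, Klf4 -0.062 to 0.20, Klf12 -0.11 to 0.26, Klf13 -0.27 to 0.28. At ZT18 they were Klf9 -0.28 to 0.077, Klf10 -0.16 to 0.27, Klf12 -0.073 to 0.051, Klf13 -0.013 to 0.40. At ZT22 they were Klf3 -0.0091 to 0.093, Klf9 -0.13 to 0.21, Klf10 -0.56 to 0.14, Klf12 -0.070 to 0.10, Klf16 -0.15 to 0.11. Differences of the mesor were Klf3 -0.020 to 0.10, Klf10 -0.31 to 0.017, Klf11 -0.18 to 0.096, Klf15 -0.024 to 0.094, of the amplitude Klf3 -0.021 to 0.14, Klf9 -0.037 to 0.097, Klf12 -0.00014 to 0.21 and of the peak time in h Klf9 -0.19 to 1.51, Klf10 -0.85 to 0.50. With no change of sign, the peak shift ran from 0.034 to 1.82 h for Klf16 and from -1.45 to -0.012 h for Klf13, and the log2 fold change of Klf16 at ZT14 from 0.16 to 0.65. With sampling times pooled, the log2 fold change of Klf10 was 0.038. The cause was not tested.

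The replicate block took mice of the same time and letter as pairs. Deviations of 16 of 18 such pairs correlated above 0.1 (range -0.061 to 0.395), and 17 of 18 libraries correlated best with their own letter. The numbers in the submitters' library names also lie close for many of these pairs. What the letters and numbers stand for is not stated, and the main tests did not use them. The block called 0 members for genotype, and it turned the log2 fold change of Klf16 at ZT6 to 0.0072 and of Klf10 at ZT18 to -0.018. For Klf13, adjusted for sampling time, the edgeR adjusted p was 0.0653 with the block against 0.205 in the main fit. Among all genes it called 387 for genotype against 171, DESeq2 called 315, pooled times 65, and leaving out a letter 42 to 85. Few counts limit Klf4 most.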

Other observations

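Within groups, mice with more Klf15 had more RNA of glucocorticoid-induced genes. Over the 36 livers, as deviations from the means of the 12 groups, log2 CPM of Klf15 went with the summed CPM of the glucocorticoid-induced list with Pearson's r = 0.835 (permutation within groups, p = 0.00022, Benjamini-Hochberg adjusted over 80 relations 0.0176) and Spearman's rho = 0.747 (permutation p = 4e-04, adjusted 0.016). It was 0.772 within THRB-WT and 0.874 within THRB-KO livers, and 0.745 without the 2 libraries farthest from the median. With the mean log2 CPM of the list it was 0.649. Tat, an enzyme of tyrosine breakdown, and Pck1, an enzyme of gluconeogenesis, make up most of the sum. For Klf15, single genes ranged from 0.843 for Tat and 0.795 for Tsc22d3 to 0.050 for Fkbp5 and -0.431 for Mt1. With the summed list, r was 0.621 for Klf3 and 0.544 for Klf11 (permutation within groups, adjusted p = 0.248 for both). The remaining members ran from -0.185 for Klf9 to 0.343 for Klf10. With the mean log2 CPM of the list, r was 0.628 for Klf3 and 0.574 for Klf11, close to that of Klf15. The source of these links was not tested.

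Klf6 went with the summed stellate cell markers (r = 0.566, permutation p = 0.00114, adjusted 0.0456; rho = 0.693, permutation p = 0.00037, adjusted 0.016), with r = 0.543 within THRB-WT and 0.681 within THRB-KO livers, and 0.735 without the 2 farthest libraries. Taken within sampling time and letter, r of Klf6 with the sum was 0.298, and no p was computed for it. The permutations for all links given here shuffled mice within each group and did not use the letters. Because mice of the same time and letter were alike across genotypes, as given above, these p-values may be too small. Klf10 and the summed CPM of the immediate early genes gave r = 0.542 (permutation p = 0.00509, adjusted 0.136) and rho = 0.580 (permutation p = 0.00186, adjusted 0.0496). The 2 measures thus fell on either side of the threshold. For Klf10, r was 0.268 within THRB-WT and 0.693 within THRB-KO livers, a difference that was not tested. It was 0.336 within sampling time and letter, and 0.507 without the 2 farthest libraries. Zfp36 and Ier2 make up most of this sum. With the mean log2 CPM of the list, r was 0.467 for Klf10 and 0.643 for Klf6, against 0.326 for Klf6 with the sum. By the mean, Klf6 thus followed these genes more closely than Klf10 did, and no p was computed for it.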
